A study of Rattus norvegicus with 35 samples.

Results

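Lungs of rats heterozygous for p53 were compared with wild-type lungs after both had received Mitsui-7, a rigid multi-walled carbon nanotube. The comparison rests on 12 of the 35 arrays of the series, 1 array per rat: 6 rats labelled GMO and heterozygous for p53 (het below) and 6 labelled Wild Type (WT), chosen by genotype and exposure alone. All were female Sprague Dawley rats that were 12 weeks old when dosing began. They were instilled through the trachea in 4 weekly sessions with Mitsui-7 at 0.25 mg/rat, and the accessory lobe of the lung was taken at day 3. The labels do not say whether that dose is for each instillation or for all, nor how the p53 allele was altered. Controls given the vehicle, Pluronic (6 WT and 6 het) and rats given NM-403, a second nanotube (6 WT and 5 het), are used here for context and to estimate the spread.

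The p53 protein is a transcription factor that is stabilised by DNA damage and switches on genes for cell cycle arrest, DNA repair and cell death. Mesothelial cells form the thin sheet that covers the lung, and long rigid nanotubes are studied for the damage they can do there. Interferons signal through surface receptors to STAT and IRF factors, which switch on a broad set of antiviral genes.

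Expression was read on Agilent one-colour arrays as log2 intensity minus the 75th percentile of the array, so levels below are log2 values on that scale and a level cannot be compared between genes. Of the spots, 71.1% to 73.7% were well above background in het Mitsui-7 arrays. In WT Mitsui-7 arrays the share was 71.2% to 86.4%, and the highest value, in WT replicate 5, stood apart from the other 11 arrays. The arrays lay on 5 slides, 4 of which held both groups, and slide was a term in the model. Each slide was scanned within 1 day. Differences are het minus WT with limma's standard error after ±. "Called" means an adjusted p under 0.05 in limma, over all 24471 genes tested. The labels name separate rats but not litters or cages, and the p-values measure only the spread between these rats.

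Few genes were called between the genotypes under Mitsui-7. Of 24471 genes, 17 were called (0.0695%), 5 higher and 12 lower in het lungs. By the same test Mitsui-7 against control called 5327 genes in WT rats (21.8%) and 5578 in het rats (22.8%). Most small differences pointed down, with 66.9% of genes below 0 and a median of -0.06 over all genes. At an unadjusted p under 0.05 there were 2340 genes, 431 higher and 1909 lower. The balance of directions depended on the scaling: with each array scaled to its median, the median over all genes was 0.10 and 6936 genes lay below 0, and differences are therefore best read against that median. The calls were then 3 higher and 0 lower, as they were with normexp; quantile normalization gave 3 higher and 2 lower, and the authors' deposited values, which cover 9803 genes, 10 higher and 0 lower. The 17 called genes kept their sign under each of these settings that measured them. In 10 genes (0.0409%) all 6 het rats lay above all 6 WT rats, and in 45 (0.184%) all 6 lay below. How many genes would separate in this way by chance was not tested. Separation is read from the same values as the calls and is not further support for them.

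Ubxn11, which encodes a UBX domain protein, had the lowest p. Its level was -3.36 to -2.87 in WT rats (median -3.19) and -4.00 to -3.51 in het rats (median -3.77), with no overlap. It was 1.53-fold lower in het lungs (log2 -0.61 ± 0.08, adjusted p = 0.000825) and was called whichever of the 12 arrays was left out, but not with arrays scaled to their median (-0.45, adjusted p = 0.0783) or with normexp background correction (-0.33, adjusted p = 0.0788). In WT rats Ubxn11 had risen with Mitsui-7 by 0.40 (adjusted p = 0.000591), while in het rats the same contrast was -0.07 (adjusted p = 0.573). The difference between those 2 responses, -0.47 ± 0.11, was not called (adjusted p = 0.325).

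Among the genes higher in het lungs, Fam25a, a small protein of the FAM25 family, came next. WT rats ranged from -3.35 to -2.53 (median -2.86) and het rats from -2.39 to -0.96 (median -1.78), so the groups did not overlap. The gene was 2.16-fold higher (1.11 ± 0.17, adjusted p = 0.00978), and another of its probes gave 1.38 ± 0.24. Without slide in the model Ubxn11 and Fam25a were the 2 genes called. Both genotypes had similar Fam25a levels in controls (WT -3.67 to -2.85, het -3.71 to -3.27), and the interaction of genotype with Mitsui-7 was 1.31 ± 0.24, short of the threshold at adjusted p = 0.0822.

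Ptgis, the prostacyclin synthase, was 1.43-fold higher (0.52 ± 0.10, adjusted p = 0.0383), with WT rats at -2.73 to -2.16 (median -2.46) and het rats at -2.10 to -1.79 (median -1.97). The 2 ranges did not meet. Duox1, an epithelial NADPH oxidase that makes hydrogen peroxide, was 1.76-fold higher (0.81 ± 0.16, adjusted p = 0.0497), and its ranges overlapped. Nppb, which encodes the natriuretic peptide BNP, had the largest estimate (2.10 ± 0.40, adjusted p = 0.0383), but it was well above background on only 2 of 6 WT and 5 of 6 het arrays and on 0 of the 12 controls. It lay outside the rule for named genes for that reason. WT rats ran from -8.97 to -6.19 (median -7.44) and het rats from -7.08 to -4.52 (median -5.24), with some overlap, and normexp gave a difference of 0.55.

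Of the 12 genes lower in het lungs, Calml3, a calmodulin-like calcium binding protein of epithelia, followed Ubxn11. Its WT levels were -4.04 to -3.24 (median -3.90) and its het levels -5.34 to -4.37 (median -4.64). The gene was 2.04-fold lower (-1.03 ± 0.17, adjusted p = 0.0164). Vwa5b1 (-1.12 ± 0.22), Wdr54 (-0.75 ± 0.14), Frmpd2 (-0.70 ± 0.14) and Spata33 (-0.64 ± 0.12) likewise had every het rat below every WT rat, each at adjusted p = 0.0383; Vwa5b1 was well above background on 5 of 6 het arrays. For Wdr54 the genotype difference was -0.64 ± 0.14 under NM-403 (adjusted p = 1) and -0.24 ± 0.13 in controls (adjusted p = 1), and its interaction of genotype with Mitsui-7 against NM-403 was -0.11 ± 0.20 (adjusted p = 0.993). Spata17 (-1.07 ± 0.20), named like Spata33 for its expression in testis, Chst9 (-0.64 ± 0.12), a sulfotransferase, and Terf2ip (-0.62 ± 0.11), the telomere protein Rap1, had the same adjusted p with overlapping ranges, as had the clone BF556567 (-0.66 ± 0.13). Ldlrad1 (-0.46 ± 0.09, adjusted p = 0.0397) and LOC103691853 (-1.03 ± 0.21, adjusted p = 0.0489) completed the set, the latter well above background on only 1 of 6 het arrays. Some of these calls depended on the probe. With the mean over a gene's probes Wdr54 (-0.46, adjusted p = 0.134) and Frmpd2 (-0.44, adjusted p = 0.273) were not called. Neither were Chst9 (-0.43, adjusted p = 0.273), Terf2ip (-0.37, adjusted p = 0.177) and Ldlrad1 (-0.64, adjusted p = 0.319). LOC103691853 kept its estimate (adjusted p = 0.0566), and the other called-lower genes stayed called.

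**Figure D1:**
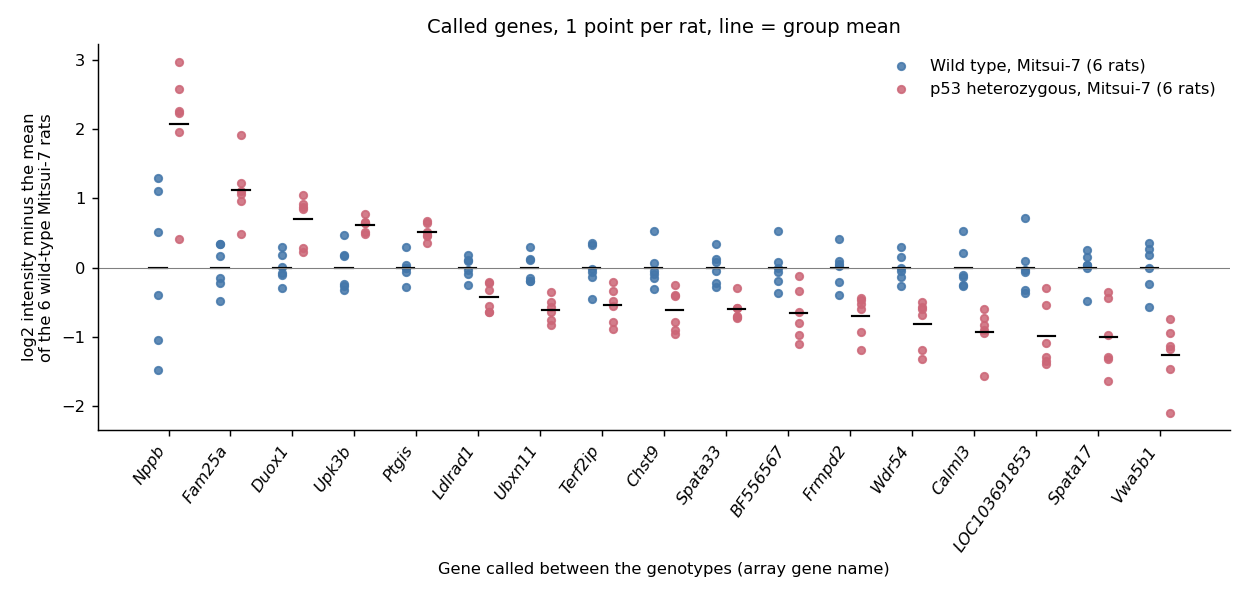
The 17 called genes, with 1 point per rat (blue WT, red het, both given Mitsui-7) and a line for each group mean; the y axis is the log2 level minus the mean of the 6 WT rats. Fam25a, Upk3b and Ptgis are higher in every het rat than in any WT rat, and Ubxn11, Calml3, Wdr54, Frmpd2, Spata33 and Vwa5b1 are lower, whereas Nppb has a wide spread in both groups.

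On each of the 4 slides with both groups the called genes kept their sign: the within-slide difference ran from 0.43 to 2.09 for Fam25a, from -0.76 to -0.30 for Ubxn11 and from -1.77 to -0.56 for Calml3. The number of calls hung on single arrays. It was 134 without het replicate 6, 74 without WT replicate 3 and 28 without WT replicate 4. It was 12 without WT replicate 2, 11 without het replicate 5 and 10 without WT replicate 6. It was 4 without het replicate 1, het replicate 3 or WT replicate 5, 3 without het replicate 2, and 1 without het replicate 4 or WT replicate 1. Fam25a and Calml3 each passed in 10 of these 12 fits; without het replicate 4 their adjusted p was 0.0557 and 0.176, and without WT replicate 1 it was 0.0507 and 0.0811. Nppb and Wdr54 passed in 6, Spata17 and Spata33 in 5, and the other 10 genes apart from Ubxn11 in 2 to 4. When the 12 Mitsui-7 arrays were fitted alone 0 genes were called, with slide (1368 at an unadjusted p under 0.05, lowest adjusted p 0.468) or without (1277, lowest 0.655), and the 17 genes kept their signs.

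**Figure D2:**
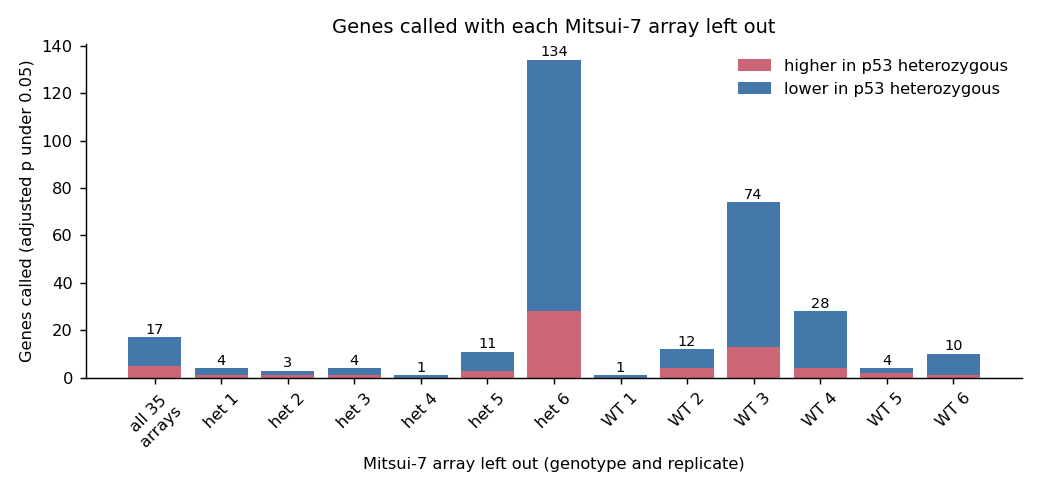
Number of genes called between the genotypes (y axis) in the fit to all 35 arrays and with each Mitsui-7 array left out in turn (x axis), split into genes higher (red) and lower (blue) in het lungs. The count is 17 with all arrays and runs from 1 to 134 with 1 array left out.

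Mesothelial genes were measured for 14 of the 15 on the list (Muc16 was not measured). Of the 14 differences 10 lay above 0 and 4 below, where 66.9% of all genes were below. The median was 0.16 against -0.06 over all genes. With arrays scaled to their median 2 of 14 were below 0 and the median was 0.32 (0.10 over all genes). Of the 14, where 0.0695% of all genes were called, 1 was called: Upk3b, a uroplakin of the mesothelial surface. Its WT levels were -5.09 to -4.30 (median -4.80) and its het levels -4.28 to -4.00 (median -4.13), so that every het rat lay above every WT rat. The gene was 1.55-fold higher in het lungs (0.64 ± 0.12, adjusted p = 0.0383). Against controls Upk3b had fallen with Mitsui-7 by 0.70 on the log2 scale in WT rats (adjusted p = 0.000127), and the same contrast in het rats was -0.05 (adjusted p = 0.813); the interaction, 0.65 ± 0.17, was not called (adjusted p = 0.396). The call for Upk3b was kept without het replicate 6, WT replicate 2 or WT replicate 3 and lost without each of the other 9 arrays, with adjusted p up to 0.181 (without het replicate 4). It was also lost without a slide term (adjusted p = 0.0732), with quantile normalization (0.0886), with arrays scaled to their median (0.107) and with normexp (0.14). The same held with no filter (0.0645) and with a replicate block (0.0594). The call stayed with slide as a random block, the stricter filter, the mean over probes and array weights. The authors' values did not cover the gene.

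Other surface proteins of mesothelium did not pass in this fit. Upk1b, a tetraspanin partner of the uroplakins, was at -0.63 to 0.00 in WT rats (median -0.48) and -0.10 to 0.75 in het rats (median 0.55), a difference of 0.75 ± 0.17 (adjusted p = 0.0784) that was above 0 on all 4 shared slides. In the authors' deposited values Upk1b was among the 10 genes called in this contrast. With Mitsui-7 Upk1b fell by 1.03 in WT rats (adjusted p = 6.72e-05). In het rats the same contrast was a rise of 0.13 (adjusted p = 0.628). The interaction was 1.16 ± 0.24 (adjusted p = 0.168). Control levels enter it as well, at 0.55 to 0.91 in WT and -0.12 to 0.58 in het controls. Msln, which encodes mesothelin, was at 1.46 to 1.85 in WT rats and 1.74 to 2.26 in het rats (0.39 ± 0.11, adjusted p = 0.171), and it had risen with Mitsui-7 in both genotypes (0.62 and 1.07). Lrrn4 differed by 0.56 ± 0.18 (adjusted p = 0.235). Cldn15 (-0.16), Gpm6a (-0.27) and Nkain4 (0.14) were further from the threshold.

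Transcription factors of the lineage, Wt1 (0.32 ± 0.21) and Bnc1 (0.15 ± 0.16), and the retinoic acid enzyme Aldh1a2 (0.18 ± 0.13) and calretinin, Calb2 (0.17 ± 0.13), had small positive differences, all uncalled. Of the secreted products, lubricin Prg4 (-0.08) and the Wnt agonist Rspo1 (0.06) were near 0. Itln1, the lectin intelectin, varied more between rats than any other member: WT rats ran from -3.90 to 3.91 and het rats from -6.70 to 2.27, and its difference was -2.42 ± 1.58 (adjusted p = 0.660). The mean of the whole list did not separate the groups, at -2.28 to -1.37 in WT and -2.12 to -1.41 in het rats, and within slides it differed by -0.06 to 0.23.

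**Figure D3:**
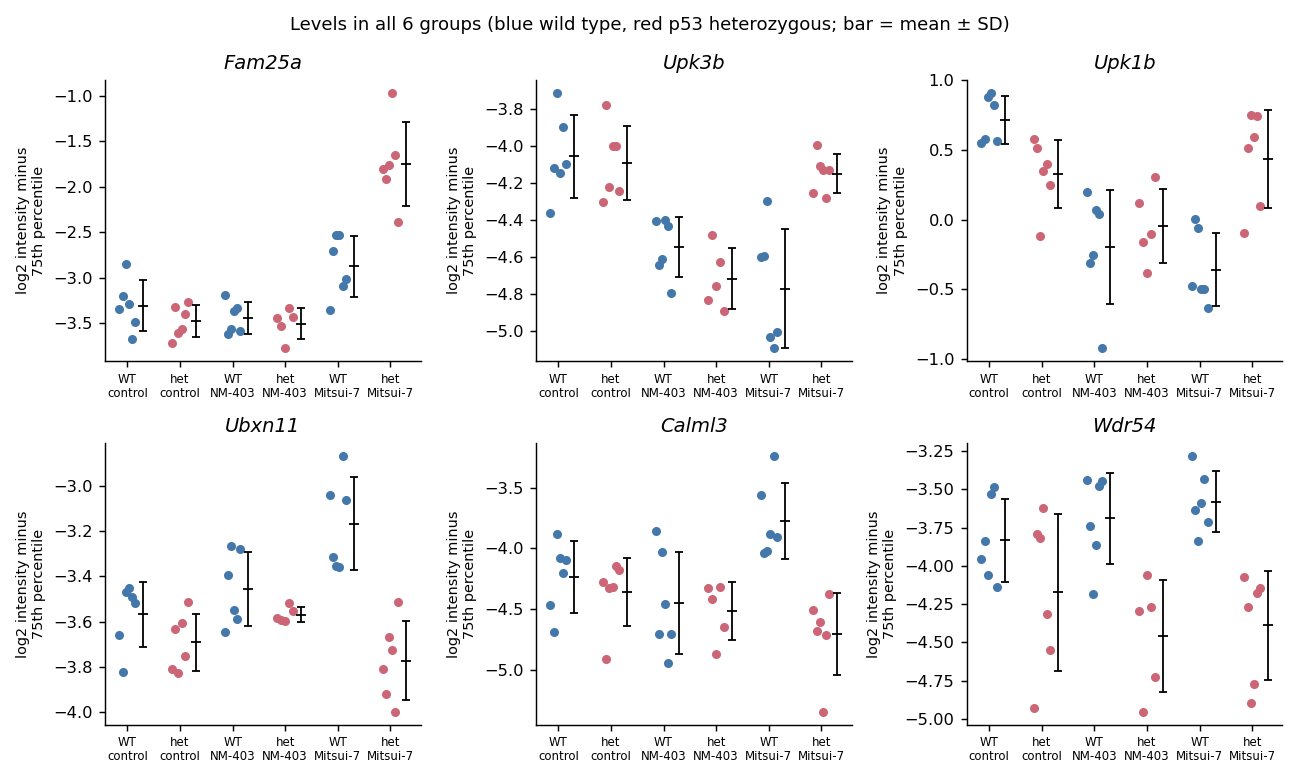
Log2 levels of 6 genes in every rat of the 6 groups (blue WT, red het), with the mean and SD as a bar beside the points. In Fam25a the het Mitsui-7 rats (-2.39 to -0.96) stand above all others; in Upk3b they sit near the controls while WT Mitsui-7 rats are lower, and in Ubxn11 the WT Mitsui-7 rats (-3.36 to -2.87) are the high group.

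Most interferon genes had small differences below 0, and 0 were called. Of 73 genes listed 67 were measured, 58 of them below 0, with a median of -0.25 (-0.06 over all genes); with arrays scaled to their median 40 were below 0 and the median was -0.09 (0.10 over all genes). At an unadjusted p under 0.05 there were 22, all lower, where 2340 of all 24471 genes (9.56%) reached that level. The lowest adjusted p was 0.0839. The mean of the list was -0.69 to -0.33 in WT rats (median -0.50) and -0.93 to -0.50 in het rats (median -0.76), so the ranges overlapped, and it was lower in het rats on 3 of 4 slides (within-slide differences of -0.44 to 0.03). In controls the sign was the other way, with a median of 0.18, and under NM-403 it was 0.06.

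Exposure to Mitsui-7 raised 35 of the 67 genes in WT rats and lowered 3, where 12.5% of all genes rose and 9.3% fell. In het rats 7 rose and 7 fell, where 8.9% of all genes rose and 13.9% fell, so the whole array leaned the same way between the genotypes. Both genotypes shared 6 of the rises. The median response was 0.36 in WT and -0.02 in het rats, against 0.04 and -0.05 over all genes. The interaction was below 0 for 62 of 67 genes (median -0.42), where 67.5% of all genes lay below 0 with a median of -0.08. It had an unadjusted p under 0.05 for 35, against 7.33% of all genes (1794, of which 1498 were below 0), but 0 were called and the lowest adjusted p was 0.301. The control groups enter this contrast as well, and their list mean was -1.26 to -0.96 in WT controls and -1.16 to -0.67 in het controls.

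**Figure D4:**
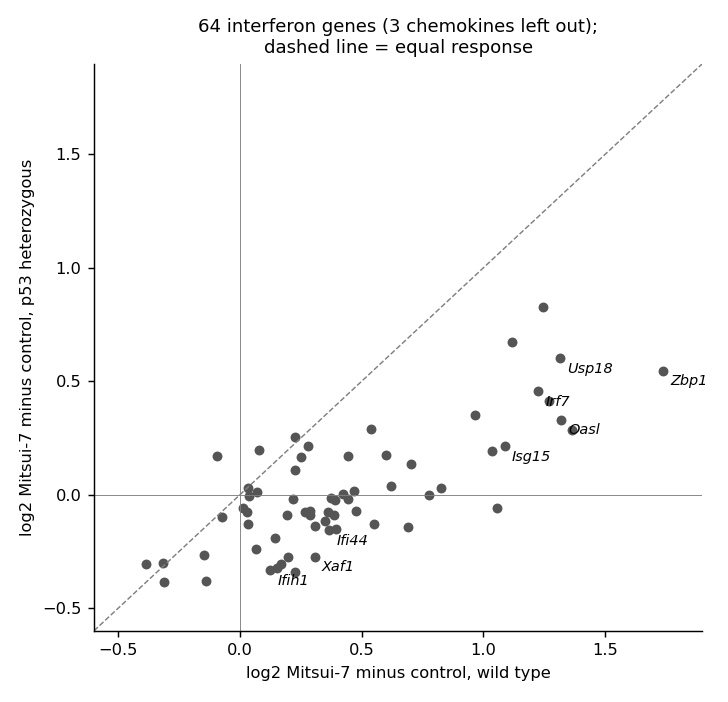
Response to Mitsui-7 (log2 Mitsui-7 minus control) of the measured interferon genes in WT rats (x axis) and het rats (y axis), 1 point per gene, with the dashed line at equal response; the 3 chemokines Cxcl9, Cxcl10 and Cxcl11, with responses of up to 4.59, are left out. Most points lie below the line, such as Zbp1 at 1.74 in WT and 0.55 in het rats.

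By role, the receptor subunits were close to 0 (Ifnar1 -0.10, Ifnar2, Ifngr1, Ifngr2 and Ifnlr1 each 0.02). Of the transcription factors Irf7 was at -0.43 ± 0.21 (adjusted p = 0.519) and Irf9 at -0.11, whereas Irf1 (-0.03) and Stat2 (0.04) were near 0. All 5 nucleic acid sensors were below 0. Ifih1, the RNA sensor MDA5, was at -2.85 to -2.23 in WT rats (median -2.28) and -3.32 to -2.55 in het rats (median -2.78), with a difference of -0.34 ± 0.08 (adjusted p = 0.0859). Zbp1, a sensor of Z-form nucleic acids, differed by -0.71 ± 0.23 (adjusted p = 0.261), Dhx58 by -0.28, Ddx58 by -0.25 and Tlr3 by -0.25.

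Among the 32 measured antiviral effectors 31 were below 0, where 66.9% of all genes were. An unadjusted p under 0.05 was reached by 17 of them and by 9.56% of all genes. These members were read on the same 12 arrays and are not independent of each other. Xaf1, a proapoptotic interferon target, was at -3.88 to -3.46 in WT rats (median -3.73) and -4.52 to -3.76 in het rats (median -4.18), a difference of -0.41 ± 0.10 (adjusted p = 0.0839). Only 1 het rat reached the WT range. Ifi44 was at -0.27 to 0.45 in WT rats and -0.46 to -0.11 in het rats (-0.39 ± 0.12, adjusted p = 0.228). The oligoadenylate synthetase gene family (Oasl -0.57, Oas2 -0.52, Oas1a -0.42, Oas3 -0.40, Oasl2 -0.15, Oas1b -0.03), the Ifit proteins (Ifit3 -0.48, Ifit2 -0.35) and the Mx GTPases (Mx1 -0.40, Mx2 -0.23) all lay on the same side. So did Rsad2 (-0.50), which encodes viperin, the ubiquitin-like Isg15 (-0.40), the RNA-dependent kinase Eif2ak2 (-0.29), Rtp4 (-0.42), Epsti1 (-0.42), Ifi44l (-0.43), Dtx3l (-0.36), Herc6 (-0.29), Lgals3bp (-0.28), Parp9 (-0.26), Cmpk2 (-0.26), Ifi27 (-0.24), Trim21 (-0.21) and Ifi27l2b (-0.17). Trim25, Isg20, Parp14, Bst2 and Ifitm3 were at -0.10 to -0.06, and Ifi35 was the 1 effector above 0 (0.07).

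The feedback inhibitors Socs1 (-0.36) and Usp18 (-0.30) and 6 of 7 guanylate binding and immunity-related GTPases were below 0 (Gbp4 -0.52, Gbp1 -0.44, Ifi47 -0.26, Gbp2 -0.23, Gbp5 -0.18 and Irgm -0.13, with Igtp at 0.06). The chemokines Cxcl10 (-0.45 ± 0.32), Cxcl11 (-0.43 ± 0.44) and Cxcl9 (-0.16 ± 0.24), which attract lymphocytes through Cxcr3, rose with Mitsui-7 in both genotypes, Cxcl10 by 3.66 in WT and 2.70 in het rats. The antigen presentation genes were mixed: Psmb8 -0.31, Psmb9 -0.15, Tap1 -0.12, Psmb10 -0.06, Nlrc5 -0.05 and B2m -0.04 were below 0, and Tapbp (0.15) and Tap2 (0.20) above.

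Promoters of interferon genes are shown because 34 of the 55 with an entry (61.8%) held the core of the interferon response element, GAAANNGAAA on either strand, against 3.92% of 33469 promoters of the same length. They come from RefSeq on build GRCr8, 300 bases around the start site of each gene, printed along the gene's strand with the match in capitals. Xaf1 lies at chr10:57415685-57415984 on the plus strand and Ifih1 at chr3:67683919-67684218 on the minus strand.
Xaf1: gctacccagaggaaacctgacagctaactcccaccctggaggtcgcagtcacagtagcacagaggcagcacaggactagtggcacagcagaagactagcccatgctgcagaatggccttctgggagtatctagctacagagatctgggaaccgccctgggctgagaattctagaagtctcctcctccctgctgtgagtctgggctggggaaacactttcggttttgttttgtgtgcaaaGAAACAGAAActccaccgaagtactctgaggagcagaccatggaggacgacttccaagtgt
Ifih1: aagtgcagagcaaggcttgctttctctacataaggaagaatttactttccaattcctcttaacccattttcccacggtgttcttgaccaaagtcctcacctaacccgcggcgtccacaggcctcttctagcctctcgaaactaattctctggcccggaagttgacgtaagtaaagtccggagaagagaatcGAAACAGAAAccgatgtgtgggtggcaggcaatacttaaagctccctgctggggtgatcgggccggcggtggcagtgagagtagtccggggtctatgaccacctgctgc
Xaf1 and Ifih1 had the lowest p of the list, and each holds 1 match, beginning at position -11 from the start site in Xaf1 and -59 in Ifih1. A match of letters is a description and not a bound site. Of the 10 called-lower genes with a promoter entry, Spata17 alone held this element.

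Markers of other immune cells had 0 called members, and their signs are to be read against the 66.9% of all genes below 0. NK cell markers were below 0 for 8 of 8 (median -0.22, or -0.16 from the median of all genes; mean level -3.11 to -2.23 in WT and -3.55 to -2.42 in het rats), and dendritic cell markers for 6 of 6 measured (median -0.19, or -0.13 from that of all genes; mean level -3.54 to -2.41 and -3.67 to -3.02). T cell markers (7 of 9 below 0) and macrophage markers (9 of 11) had medians of -0.08 and -0.10, only -0.02 and -0.04 from the median of all genes. Their part in the interferon differences was not tested, and in whole lobes fewer cells of a type cannot be told apart from less RNA per cell.

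Genes of ciliated cells, which carry mucus along the airways, were below 0 for 8 of 8 markers, with a median of -0.32; with arrays scaled to their median 6 of 8 were below 0 and the median was -0.15, which in both cases was -0.26 from the median of all genes. At an unadjusted p under 0.05 there were 5, where 9.56% of all genes reached that level, and 0 were called. Tekt1, a tektin of the ciliary axoneme, was at -3.37 to -2.82 in WT rats and -3.79 to -3.35 in het rats (-0.43 ± 0.12, adjusted p = 0.143). Ccdc39 (-0.39), Ccdc113 (-0.34), Dynlrb2 (-0.32) and Rsph1 (-0.32) followed, and Foxj1, the master regulator of motile cilia, differed least (-0.13 ± 0.11). The mean of the list was -0.62 to -0.17 in WT and -0.72 to -0.36 in het rats and was lower in het rats on all 4 slides (-0.46 to -0.20). It was also below 0 for 8 of 8 markers in controls (median -0.09) and under NM-403 (median -0.19), with 0 called in either.

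RFX factors act with Foxj1 on ciliary genes through a motif whose half-site is GTTGCC, searched here on both strands. It was found in 4 of 10 promoters of the called-lower genes (Spata17, Calml3, Wdr54 and Spata33), in 2 of 5 of the ciliated markers, in 9.09% of interferon promoters and in 12.2% of all. The promoters of Spata17 (chr13:101316094-101316393, minus strand, GRCr8) and Wdr54 (chr4:117219221-117219520, minus strand) are printed because both genes were called and the shares above rest on such matches, with the half-site in capitals as read on the gene's strand.
Spata17: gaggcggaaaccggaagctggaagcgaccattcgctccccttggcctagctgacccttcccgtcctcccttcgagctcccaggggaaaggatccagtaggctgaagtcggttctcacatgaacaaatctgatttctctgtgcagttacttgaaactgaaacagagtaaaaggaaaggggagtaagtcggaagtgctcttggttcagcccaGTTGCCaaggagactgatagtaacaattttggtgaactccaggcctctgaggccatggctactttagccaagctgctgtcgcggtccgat
Wdr54: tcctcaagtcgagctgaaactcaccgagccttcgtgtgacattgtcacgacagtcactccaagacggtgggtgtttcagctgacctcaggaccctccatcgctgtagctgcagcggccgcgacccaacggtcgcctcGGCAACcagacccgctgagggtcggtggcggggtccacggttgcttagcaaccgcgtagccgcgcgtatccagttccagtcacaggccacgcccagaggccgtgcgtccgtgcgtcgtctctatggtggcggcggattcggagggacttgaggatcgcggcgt
The match began at position -40 from the start site in Spata17 and -113 in Wdr54, where the motif lies on the opposite strand. These shares describe letters in a few promoters only.

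**Figure D5:**
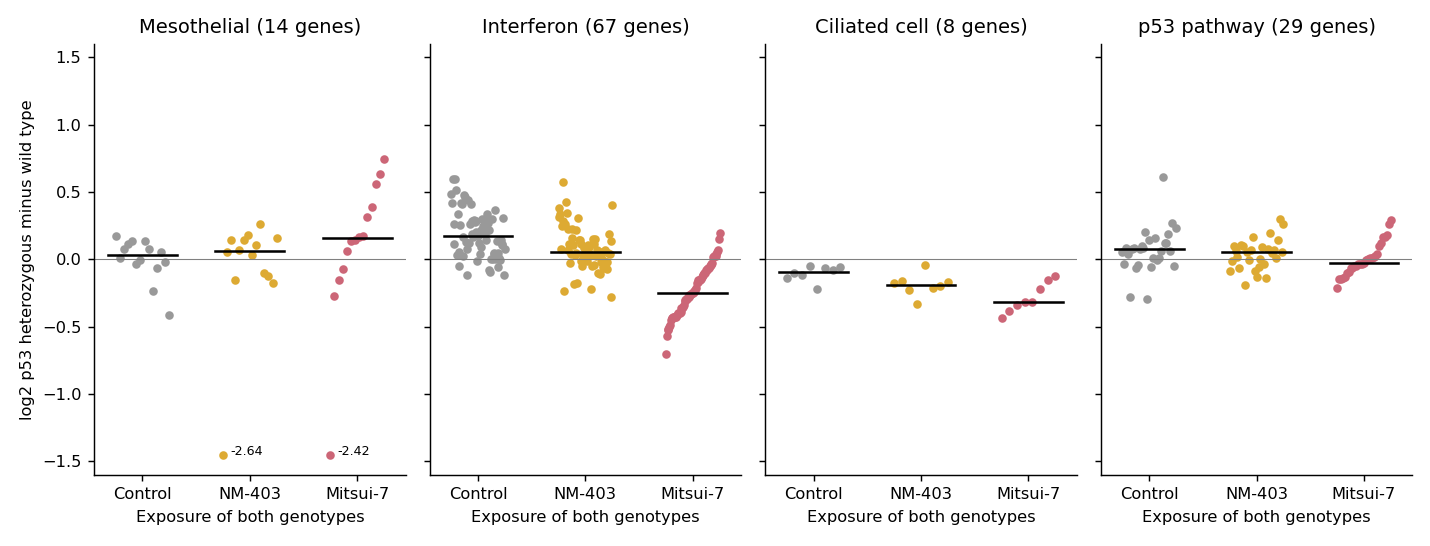
Het minus WT difference (log2) of each measured gene of 4 lists, in controls (grey), NM-403 (yellow) and Mitsui-7 rats (red), with a line at the median; 2 values of Itln1 beyond the axis are drawn at its edge with their value. Interferon genes have medians of 0.18, 0.06 and -0.25 in the 3 exposures, and p53 pathway genes have a median of -0.03 under Mitsui-7.

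In the p53 pathway 0 genes were called. Mdm2, the ubiquitin ligase that degrades p53 and is also its target, differed by -0.21 ± 0.07 (adjusted p = 0.220). Cdkn1a, the cell cycle inhibitor p21, was at 0.84 to 1.16 in WT and 0.80 to 1.19 in het rats (-0.06 ± 0.10, adjusted p = 0.900), and rose with Mitsui-7 by 0.72 in WT and 0.70 in het rats. Of 29 measured members of 31, 0 were called. The signs were 13 above and 16 below 0, where 66.9% of all genes lay below. The median was -0.03, against -0.06 over all genes. It was 0.14 with arrays scaled to their median (0.10 over all genes), 0.04 with normexp (0.02) and 0.07 in the authors' values (0.04). Measured from the median of all genes it was 0.03, 0.03, 0.02 and 0.02 in that order. The cell death gene Aen had the highest difference (0.29 ± 0.13, adjusted p = 0.441).

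Other lists had 0 called members. Their signs and medians are likewise to be read against all genes, of which 66.9% lay below 0 with a median of -0.06. Mitotic genes had a median of -0.12 (21 of 25 below 0), matrix genes -0.01 and NRF2 targets -0.10, although Mt2A, a metallothionein, was higher in het lungs by 0.49 ± 0.10 (adjusted p = 0.0610). Type 2 response genes were lower for 9 of 14 (median -0.19), and chemokines and cytokines higher for 14 of 20 (median 0.18). Alveolar type 2 cell markers were above 0 for 7 of 7 (median 0.14) and mast cell markers below 0 for 5 of 6 (median -0.38). Within slides the mean of the mast cell markers differed by -1.25 to 0.85. Their median difference was also below 0 in controls (-0.23) and under NM-403 (-0.17). Club and mucous cell markers had a median of -0.22, neutrophil markers 0.27, B cell markers -0.10, plasma cell markers -0.11, MHC class II genes -0.17, and alveolar type 1, endothelial, fibroblast, smooth muscle, cardiac, erythroid and adipocyte markers lay between -0.06 and 0.04. Within slides the list mean differed by -0.73 to 0.05 for club and mucous markers and by -0.35 to 0.47 for neutrophil markers. The median level of the neutrophil mean was -2.99 in WT and -3.04 in het rats. As a check of the labelled tissue, 7 of 7 alveolar type 2 cell markers, among them the surfactant proteins, were well above background on each of the 12 arrays. Of the genes with the next lowest p, which did not pass, Adgrd1, an adhesion receptor (0.56 ± 0.12, adjusted p = 0.0610), and Ildr2 (0.56 ± 0.12, adjusted p = 0.0613) were above all WT rats in every het rat, and Lgi3 (0.36 ± 0.08, adjusted p = 0.0800) and Sbsn (0.49 ± 0.12, adjusted p = 0.0839) overlapped. In the authors' deposited values Mt2A, Lgi3 and Sbsn were called, and 2 of the 10 genes called there, Duox1 and Ptgis, are among the 17.

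The genotype contrast in the other exposures gave no calls in the main fit. In controls 0 of 24471 genes were called (1141 at an unadjusted p under 0.05, lowest adjusted p 0.0584), and under NM-403 0 (763, lowest 0.140). The interaction of genotype with Mitsui-7 against control called 0 (1794, lowest 0.0822), and that of genotype with Mitsui-7 against NM-403 called 0 (1290, lowest 0.290). In this fit the difference under Mitsui-7 was therefore not shown to differ from that in other rats for any gene. The interaction against control did call 3 genes in the authors' values (Rhod, Sbsn and Upk1b) and 26 with array weights. That against NM-403 called 1 (Ccl27) and 4 in those runs. Arrays of 24326 genes were also simulated, with noise drawn independently for each gene and array. In them the model recovered 43.3% of genes set 0.5 apart on the log2 scale. It recovered 67.2% of those 1 apart and 95.5% of those 2 apart, and it called 5 of 24126 unchanged genes. Whether these shares hold for the real arrays, where the number of calls hung on single arrays, was not tested.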

How the data were processed

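Intensities were deposited as the scanner's processed signal per spot, background-corrected with Feature Extraction (Agilent, version 12.0.1.1), as the file headers and the submitters' processing notes state. Control spots were left out and outlier spots set to missing. Values were taken to log2, each array had its own 75th percentile taken off, and spots of a probe were averaged. A gene was read from its probe of highest mean. Probes needed a signal well above background in 5 or more arrays and a value in 3 or more of each group, which left 24471 genes, 15235 with a symbol. The authors also deposited log2 values of 11555 probes, centred on each probe's median, which matched the scanner values within arrays at r = 0.994 to 0.999 after the same centring; how those probes were chosen and scaled is not stated per the labels. They served as an alternative.

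All 35 arrays were fitted in limma 3.58.1 (R 4.3.3) with a mean per group and slide, read from the file headers, as a block (25 residual degrees of freedom); p-values were adjusted by Benjamini-Hochberg over all genes, with a threshold of 0.05. Residuals of arrays on 1 slide correlated more (mean r 0.239 between groups) than those on other slides (-0.0563). The rule named the 10 largest rises and falls among called symbols whose higher group was above background in all its arrays, filled up by the smallest p where fewer passed, always Mdm2, Cdkn1a and the measured mesothelial and interferon genes, and up to 4 called members of other lists. Members and lists were chosen with earlier results of these data known. The model was tested on simulated data. Some genes under the rule are not reported here. Alternatives were other slide terms, normalizations, filters, probe rules, weights, the replicate number as a block and each Mitsui-7 array left out; the ciliated list joined them after its values were seen. The number of arrays limits the precision.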

Additional observations from a re-analysis of the deposited data

Results flagged for a closer look

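In 14 of 234 groups of 6 rats (5.98%) 1 rat stood far from the other 5, where chance gives about 1 in 20. The gap to the nearest rat is given as a share of the group's range, and 0.625 is the critical value. Among het Mitsui-7 rats, replicate 2 was highest for the antiviral genes Bst2 (0.719, level 3.32 against a median of 2.64) and Parp14 (0.681, 1.52 against 1.09). The same rat was lowest for Cldn15 (0.642, 2.53 against 3.38) and the ciliary gene Tekt1 (0.67, -3.79 against -3.45). Replicate 4 was lowest for Calml3 (0.649, -5.34 against -4.64) and Bnc1 (0.7, -4.97 against -4.34). Replicate 3 was highest for Spata33 (0.667, -3.85 against -4.19) and lowest for Mt2A (0.732, 0.92 against 1.47), and replicate 6 was lowest for Ifngr2 (0.661, -0.67 against -0.37).

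Among WT Mitsui-7 rats, replicate 5 was highest for Dtx3l (0.766, -0.99 against -1.40) and Ifi44l (0.635, -2.88 against -3.53). Replicate 2 was lowest for Herc6 (0.712, -0.66 against -0.18) and Spata17 (0.649, -5.06 against -4.55), and replicate 1 for Igtp (0.68, 4.25 against 4.58). The cause was not tested for any of these.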

How the results depend on the processing

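The 17 called genes kept their direction under every alternative run that measured them, but the number of calls was not. Against 17 genes called, the count was 2 without a slide term, 41 with slide as a random block, 0 with the 12 Mitsui-7 arrays alone (with or without slide), 5 with quantile normalization, 3 with array medians, 3 with normexp, 10 in the authors' values, 37 with a stricter filter, 3 with no filter, 11 with the mean over probes and 331 with array weights. Leaving out 1 array gave 1 to 134. Replicate numbers did not pair the rats (residual correlations of -0.279 to 0.274), and with a replicate block beside slide 9 genes were called here and 0 in the other genotype contrasts. The count in controls became 1 with the stricter filter (Edn1) and 5 with array weights, and that under NM-403 1 with the mean over probes (Wdr54). The interaction with Mitsui-7 against control called 3 in the authors' values (Rhod, Sbsn, Upk1b) and 26 with array weights, and that against NM-403 1 (Ccl27) and 4. The interferon median, -0.25, was -0.0854 with array medians and -0.30 at the lowest. The p53 pathway median was 0.14 with array medians, 0.0447 with normexp and 0.0666 in the authors' values. The ciliated median, -0.32, was -0.15 with array medians. The mesothelial median stayed within 0.09 to 0.33. Measured from the median of all genes, the list medians of the main fit and of array medians matched to 2 decimals. They were -0.19 for interferon, 0.03 for p53 pathway, -0.26 for ciliated and 0.22 for mesothelial genes. The median of all genes was -0.06 in the main fit and 0.10 with array medians. The cause of the other shifts was not tested. Genes near background, such as Nppb, are limited by signal.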

Other observations

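Chemokines and cytokines had a higher list mean in het lungs on all 4 shared slides, by 0.11 to 0.24, with Ccl3, a macrophage chemokine, the highest member (0.51). Type 2 response genes had a lower list mean on all 4 slides, by -0.50 to -0.08, and Clca1, a goblet cell product, was the lowest member (-1.34). The alveolar macrophage receptor Marco was at -1.09 and the plasmacytoid dendritic cell lectin Siglech at -1.05. None of these genes was called.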
